A study of Mus musculus with 4 samples.

Results

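The Schlafen genes analysed here are Slfn1, Slfn2, Slfn3, Slfn4, Slfn5, Slfn8 and Slfn9, 7 of the 24015 symbols in each count table. They were chosen by name, with earlier results of these data known. All 7 were found in the tables and all 7 passed the filter on low counts. RNA-seq had been done on hematopoietic stem and progenitor cells (HSPC) purified by cell sorting, giving 2 control and 2 caNIK libraries. caNIK animals express a NIK mutant that TRAF3 cannot target from a Rosa-loxp-STOP-loxp-NIK allele once Vav-iCre has removed the stop. NIK, encoded by Map3k14, is the kinase that turns on non-canonical NF-kB signals, and Vav regulatory sequences drive Cre throughout the blood system, so mature blood cells of these animals carry the active allele as well. The labels give the control group no alleles, and give neither the age nor the number of the animals. Whether the libraries of a group stem from different animals is not said either, so the p-values rest on the spread between libraries, which could be technical.

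Schlafen proteins are a family of vertebrate proteins that share an N-terminal core with nuclease activity in several members. They are known for induction by interferon, for cutting or shielding tRNA, for restraint of virus growth and for control of lymphocyte and myeloid proliferation. Mouse members fall into a short class (Slfn1 and Slfn2), an intermediate class (Slfn3 and Slfn4) and a long class (Slfn5, Slfn8 and Slfn9) that carries an additional helicase-like region. In blood cells the family is best known through Slfn2, whose loss leaves T cells and monocytes unable to stay quiescent.

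Of the 7 members, Slfn2, Slfn4 and Slfn5 rose in caNIK HSPC, by 4.84-fold, 2.82-fold and 2.83-fold. Slfn1, Slfn3, Slfn8 and Slfn9 did not pass the test. Levels are read counts scaled to a common library size (CPM) with TMM factors, which correct for composition. Passing meant a Benjamini-Hochberg adjusted p under 0.05 in edgeR's quasi-likelihood test across 14191 genes. Thus 3 of 7 members were higher, against 13.8% of all genes tested. None was lower in edgeR's test, against 8.21% of all genes, and 0 were lower at an unadjusted p under 0.05, with 0 also in DESeq2 and in limma-voom. The median log2 fold change was 1.09 over the members and 0.00376 over all genes tested. The members' median is the value of Slfn1, whose groups overlap, and it was 0.29 with control replicate 2 left out, 0.54 with caNIK replicate 2 left out and 1.56 with control replicate 1 left out. In 4 members both caNIK libraries lay above both control libraries, which held for 33.3% of all genes tested, and in 1 member, Slfn9, both lay below, which held for 31.6%.

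Map3k14 served as the check of the labels. It lay at 30.2 and 25.1 CPM in the control libraries and at 177 and 192 CPM in the caNIK libraries (log2 fold change 2.74 ± 0.17 SE, edgeR adjusted p = 0.00023). Totals ran from 18574452 to 23162766 counts per library, and single members were counted between 18 and 992 times. Stem and progenitor markers were present in each library, at a summed level of 2767 and 3057 CPM in control and 1229 and 1654 CPM in caNIK. Of the 12 markers on that list 6 fell and 2 rose, and Kit lay at 610 and 613 CPM in control and 558 and 506 CPM in caNIK without passing. Mast cell markers rose in 9 of 10 cases, with sums of 178 and 257 CPM in control and 3011 and 1604 CPM in caNIK. Their part in the Schlafen changes was not tested. Beside these marker counts, 13.8% of all genes tested were higher and 8.21% lower.

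**Figure D1:**
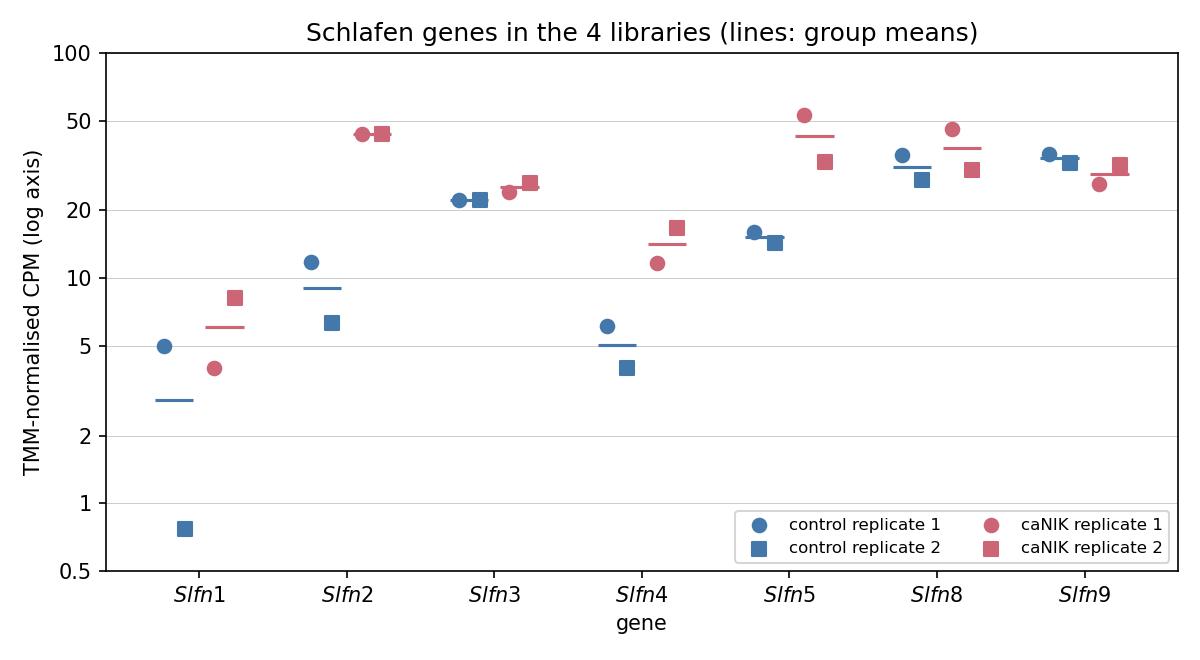
TMM-normalised CPM (vertical log axis) of the 7 Schlafen genes in each library, with blue for control, red for caNIK, circles for replicate 1, squares for replicate 2 and short lines for group means. Slfn2, Slfn4 and Slfn5 show separate groups, whereas the Slfn1 control libraries lie at 4.98 and 0.767 CPM on either side of 1 caNIK value of 3.97.

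Stretches just upstream of the transcription starts are shown for the motifs they hold, beside which each member's fold change can be read; differences between members were not tested. All 7 members matched an entry in the RefSeq promoter table of GRCm38.p6, a build later than the mm9 named for the counts. The 250 bases before each start were searched on both strands. The interferon-stimulated response element (ISRE) core was searched as a pair of GAAA half-sites with any 2 bases between them. It occurred in Slfn5, Slfn8 and Slfn9, the 3 long members, and in 2.98% of 32851 promoter windows of the same length. The string CTTCCTGG, which holds the core of sites bound by ETS factors and was chosen after the promoters had been read, occurred in Slfn1, Slfn2, Slfn3 and Slfn4, and in 3.35% of windows. The STAT motif TTCNNNGAA, present in 7.02% of windows, was in none of the 7.

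The short and intermediate members are shown from 100 bases before the start to the base before it, on the plus strand of GRCm38.p6. The stretches are chr11:83116720-83116819 for Slfn1, chr11:83065012-83065111 for Slfn2, chr11:83191230-83191329 for Slfn3 and chr11:83175086-83175185 for Slfn4. Capitals mark CTTCCTGG and, in Slfn2, also GGGATTTCC.
Slfn1: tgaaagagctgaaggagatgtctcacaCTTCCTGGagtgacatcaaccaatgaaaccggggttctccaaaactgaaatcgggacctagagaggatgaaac
Slfn2: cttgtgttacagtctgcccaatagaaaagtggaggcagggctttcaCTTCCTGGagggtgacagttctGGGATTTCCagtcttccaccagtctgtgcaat
Slfn3: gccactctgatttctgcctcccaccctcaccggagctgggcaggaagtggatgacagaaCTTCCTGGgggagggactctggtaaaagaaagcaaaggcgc
Slfn4: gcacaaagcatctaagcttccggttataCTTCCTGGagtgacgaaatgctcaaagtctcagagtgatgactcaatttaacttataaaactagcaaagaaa
In all 4 the string stands in the same orientation, and its first base lies 73 bases before the start in Slfn1, 54 in Slfn2, 41 in Slfn3 and 72 in Slfn4. Of these 4 genes, Slfn2 and Slfn4 rose. GGGATTTCC matches a 9-base form of the NF-kB site, GGGANTTCC, a pattern chosen after the Slfn2 promoter had been read. It was found in Slfn2 and in none of the other members, and in 1.43% of windows. The usual 10-base NF-kB consensus occurred in Slfn1 and Slfn9 and in 7.25% of windows. Its Slfn1 match, GGGGTTCTCC, begins 43 bases before the start and stands in small letters in the stretch above.

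The long members are shown over the 100 bases that hold the ISRE core. They lie at chr11:82951882-82951981 on the plus strand for Slfn5, chr11:83020811-83020910 on the minus strand for Slfn8 and chr11:82991831-82991930 on the minus strand for Slfn9. Capitals mark the ISRE core, which reads as its reverse complement in Slfn8 and Slfn9.
Slfn5: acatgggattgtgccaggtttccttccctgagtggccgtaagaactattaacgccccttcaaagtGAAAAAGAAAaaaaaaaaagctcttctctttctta
Slfn8: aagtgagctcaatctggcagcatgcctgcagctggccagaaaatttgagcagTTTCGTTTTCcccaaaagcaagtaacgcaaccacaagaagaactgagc
Slfn9: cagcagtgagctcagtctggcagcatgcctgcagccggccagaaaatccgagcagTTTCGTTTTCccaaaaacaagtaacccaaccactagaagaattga
The same 10 letters, TTTCGTTTTC, stand in Slfn8 and Slfn9, beginning 48 and 45 bases before the start. The Slfn5 match begins 155 bases before the start, next to a run of A. Slfn5 rose and Slfn8 and Slfn9 did not pass the test. The printed stretches of Slfn8 and Slfn9 are alike in most letters, so members with a match are not independent cases beside the shares of windows. These matches are descriptions of the letters, and binding was not measured.

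In the short class, Slfn2, which shields tRNA from cleavage in activated T cells, had the largest fold change of the 7 genes. Control libraries held 228 and 149 of its reads and caNIK libraries 817 and 909, or 11.8 and 6.35 CPM against 43.9 and 43.8 CPM. The caNIK libraries were nearly equal and stood well above both controls. The log2 fold change was 2.27 ± 0.32 (SE; 95% interval 1.51 to 3.04; edgeR adjusted p = 0.0041). Its call was kept in each of the 12 alternative analyses, including those with 1 library left out.

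Slfn1, known to slow the growth of thymocytes when forced on, was the least counted member. Its 96 and 18 control counts and 74 and 169 caNIK counts gave 4.98 and 0.767 CPM against 3.97 and 8.15 CPM, so the groups overlapped. The log2 fold change was 1.09 ± 0.84 with a 95% interval from -0.93 to 3.10 (edgeR adjusted p = 0.41), which covers no change as well as an 8.58-fold rise. Control replicate 1 decided this value: without it Slfn1 passed at a log2 fold change of 2.96 (edgeR adjusted p = 0.0081), and without control replicate 2 the value was 0.29. T cell genes were also higher in control replicate 1 than in replicate 2. Cd3e lay at 11.1 and 2.94 CPM in these libraries and at 6.12 and 2.46 CPM in the caNIK libraries, Cd8a at 11.6 and 2.22 against 9.56 and 5.21 CPM. The 9 T cell markers found summed to 137 and 60.9 CPM in control and 186 and 73.0 CPM in caNIK, and none of these 9 was at 0 in all libraries. Between the caNIK libraries the orders differed, with Slfn1 higher in replicate 2 and the T cell sum higher in replicate 1. The part of T cell RNA in the Slfn1 values was not tested. In bulk RNA of this kind, fewer cells of a type and less RNA per cell cannot be told apart.

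In the intermediate class, Slfn4, a gene of monocytes, macrophages and myeloid suppressor cells, was at 6.12 and 4.0 CPM in control and 11.7 and 16.8 CPM in caNIK. Both caNIK values exceeded both control values. The log2 fold change was 1.49 ± 0.37 (SE; 95% interval 0.60 to 2.39; edgeR adjusted p = 0.032). This call did not survive the loss of control replicate 2 (edgeR adjusted p = 0.088) or of caNIK replicate 2 (adjusted p = 0.12). Granule and alarmin genes of neutrophils moved in the same direction: 6 of 9 tested markers rose, and the 9 summed to 41.9 and 59.5 CPM in control and 254 and 361 CPM in caNIK. Of 8 tested monocyte and macrophage markers 1 rose, Cx3cr1, and the list summed to 68.2 and 110 CPM in control and 148 and 170 CPM in caNIK. Among all genes tested 13.8% were higher. Neither list had a member at 0 in all libraries, and their part in the Slfn4 change was not tested.

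Slfn3, studied mostly in gut epithelium and T cells, stayed within a narrow range. It lay at 22.3 CPM in both control libraries and at 24.1 and 26.5 CPM in the caNIK libraries. The caNIK values were the higher ones, but the log2 fold change was 0.18 ± 0.20 with a 95% interval from -0.29 to 0.66 (edgeR adjusted p = 0.57), so a rise of over 1.58-fold lies outside the interval. Slfn4 and Slfn3 are neighbours and share sequence, and the ratio of their counts was 0.275 and 0.180 in the control libraries and 0.486 and 0.634 in the caNIK libraries.

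In the long class, Slfn5, an interferon-induced nuclear member, lay at 16.1 and 14.3 CPM in control and at 53.3 and 32.7 CPM in caNIK. The control libraries were close together, and both caNIK libraries were higher, with replicate 1 above replicate 2. The log2 fold change was 1.5 ± 0.28 (SE; 95% interval 0.84 to 2.16; edgeR adjusted p = 0.011). The call held in each of the 12 alternatives. Slfn5 exons overlap those of the antisense gene Slfn5os over 559 bases, or 8.84% of the Slfn5 exon length in GENCODE M21, and Slfn5os was listed at 0 in each library. The strand setting of the counting is not known, so reads of the 2 genes cannot be told apart there.

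Slfn8 and Slfn9, long members related to the RNA-cutting and replication-blocking human Schlafen proteins, did not pass. Slfn8 lay at 35.1 and 27.2 CPM in control and 45.9 and 30.1 CPM in caNIK, with overlapping groups (log2 fold change 0.29 ± 0.26; 95% interval -0.33 to 0.90; edgeR adjusted p = 0.48). The sign of this value turned when caNIK replicate 1 was left out (-0.04). Slfn9 lay at 35.7 and 32.5 CPM in control and 26.3 and 31.9 CPM in caNIK. Both of its caNIK values were the lower ones, although caNIK replicate 2 was within 1 CPM of control replicate 2, and the log2 fold change was -0.23 ± 0.20 (95% interval -0.70 to 0.24; edgeR adjusted p = 0.46). The upper ends of these intervals are 1.87-fold for Slfn8 and 1.18-fold for Slfn9. The ratio of Slfn5 to Slfn8 counts was 0.458 and 0.527 in control and 1.16 and 1.08 in caNIK.

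**Figure D2:**
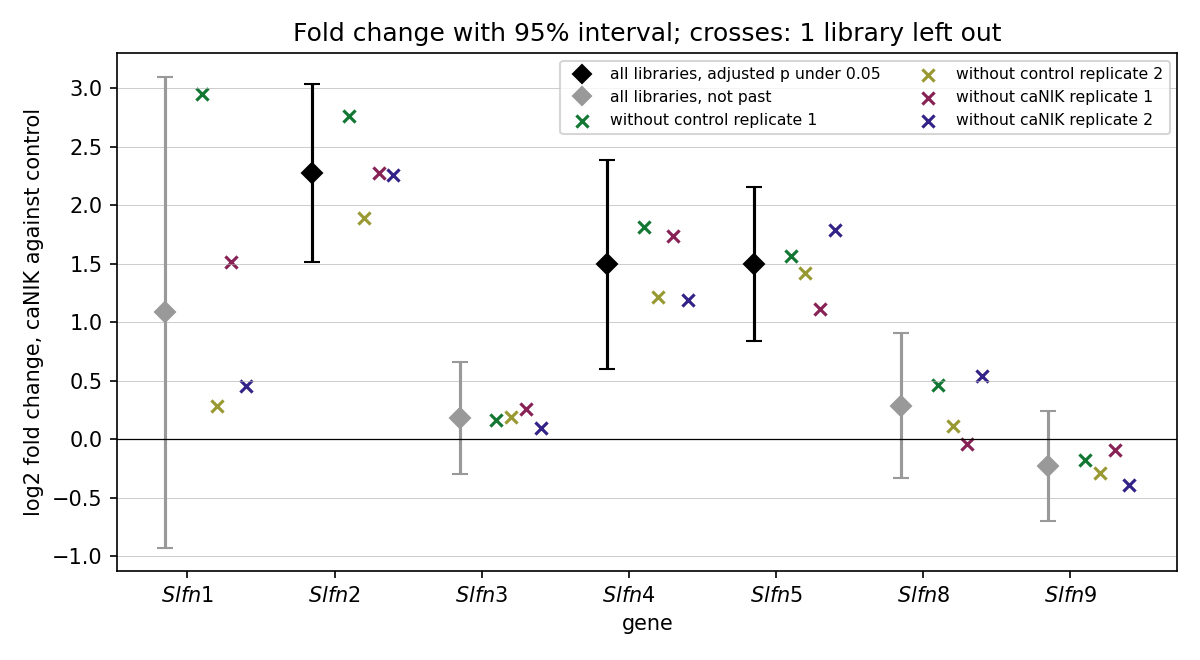
Log2 fold change of each member (vertical axis), caNIK against control, as diamonds with 95% intervals (black where the adjusted p was under 0.05, grey otherwise) and as crosses with 1 library left out. Diamonds and crosses of Slfn2, Slfn4 and Slfn5 lie above 1, whereas those of Slfn1 run from 0.29 to 2.96. The intervals reach down to 0.60 for Slfn4 and 0.84 for Slfn5.

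Sequence shared between members limits how well reads can be assigned. Over GENCODE M21 transcripts, 14.6% of the 50-base words of Slfn8 and 11.2% of those of Slfn9 also occur in another Schlafen gene, mainly in each other and in Slfn10-ps. The share was 8.15% for Slfn4 and 7.39% for Slfn3, mainly with each other. It was 4.27% for Slfn2 and 0.606% for Slfn1, and no 50-base word of Slfn5 occurred in another Schlafen gene. All shared words of Slfn2 occur in Slfn4. Both of these genes rose, and their counts were not summed. At 100 bases the largest share was 3.71%, in Slfn9. With Slfn3 and Slfn4 counts summed into 1 gene, a choice made after the data were seen, the log2 fold change was 0.53 ± 0.19 (edgeR adjusted p = 0.095). In each library this sum holds more Slfn3 than Slfn4 counts. It therefore cannot show whether reads were assigned to the wrong gene. With Slfn8, Slfn9 and Slfn10-ps summed it was 0.05 ± 0.18 (edgeR adjusted p = 0.87).

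Per kilobase of exon in GENCODE M21, the order of the members changed between the groups. In control, Slfn8 was highest at 7.61 ± 1.37 CPM per kb (SD, n = 2), followed by Slfn3 at 6.53 ± 0.00659, Slfn9 at 5.72 ± 0.377 and Slfn2 at 5.46 ± 2.33. The single-library values of Slfn2 overlapped those of Slfn8, Slfn3 and Slfn9 there, so its place among these 4 was not settled. Slfn5 followed at 2.40 ± 0.197, Slfn1 at 1.54 ± 1.60 and Slfn4 at 1.28 ± 0.377 CPM per kb. The Slfn1 control values of 2.67 and 0.411 CPM per kb spanned those of both Slfn5 and Slfn4. In caNIK, Slfn2 was highest at 26.4 ± 0.0216 CPM per kb, and both of its libraries lay above those of every other member. Slfn8 followed at 9.29 ± 2.72, Slfn3 at 7.41 ± 0.488, Slfn5 at 6.79 ± 2.30 and Slfn9 at 4.88 ± 0.670, and from Slfn8 to Slfn9 each gene's libraries overlapped those of the next in this order. Slfn4 at 3.59 ± 0.904 and Slfn1 at 3.25 ± 1.58 were the lowest and overlapped each other.

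The summed level of the 7 genes was 132 and 107 CPM in control and 209 and 190 CPM in caNIK, a 1.67-fold difference of the means. Slfn2, Slfn4 and Slfn5 together made up 25.8% and 23.0% of the family's counts in control, and 52.1% and 49.1% in caNIK. Exact binomial 95% intervals were 24.1% to 27.5% and 21.3% to 24.7% in control, and 50.5% to 53.6% and 47.5% to 50.7% in caNIK; they cover counting error only. Slfn2 alone went from 8.96% and 5.91% to 21.0% and 23.1%, and Slfn9 from 27.0% and 30.3% to 12.6% and 16.8%. These shares are not separate from the fold changes above, and no test was made on them, since an exact two-sided permutation test of 2 against 2 libraries cannot go below p = 0.333.

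**Figure D3:**
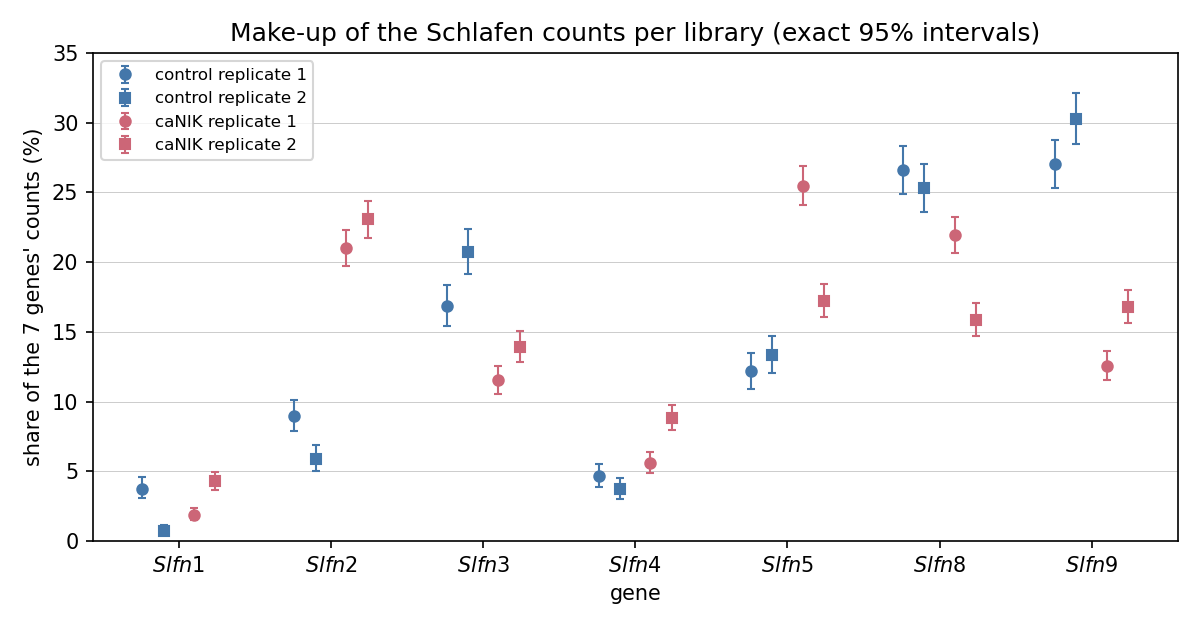
Share of the 7 genes' counts (vertical axis, percent) taken by each gene in each library, with exact binomial 95% intervals; colours mark the groups and shapes the replicates. Slfn2 holds 21.0% and 23.1% in caNIK against 8.96% and 5.91% in control, and the Slfn9 share is lower in both caNIK libraries.

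The Schlafen genes form an unbroken cluster on chromosome 11 in the RefSeq gene table of GRCm38.p6, with no other protein-coding gene inside. The order is Slfn5, Slfn9, Slfn8, Slfn2, Slfn1, Slfn4, Slfn3 and Slfn14. Of the 3 members that rose, Slfn5 stands at the end of the cluster, and Slfn2 and Slfn4 each stand between members that did not pass. Slfn14, a long member with a role in platelets and red cells that is not among the 7, had 0 and 3 counts in control and 107 and 84 in caNIK. The ratio was 69.1 with an exact 95% counting interval of 23.3 to 338, which covers counting error only. The 95% interval of the fit was 13.4-fold to 321-fold (edgeR adjusted p = 0.0066). Of 9 erythroid markers tested 5 rose and 0 fell. The 9 summed to 387 and 896 CPM in control and 1676 and 2790 CPM in caNIK, with none at 0 in all libraries. Of 9 megakaryocyte and platelet markers tested 4 rose and 2 fell. That list summed to 396 and 520 CPM in control and 717 and 570 CPM in caNIK. Among all genes tested 13.8% were higher and 8.21% lower. The part of either list in the Slfn14 change was not tested. The pseudogene Slfn10-ps lay at 16.3 and 12.9 CPM in control and 20.4 and 11.2 CPM in caNIK (log2 fold change 0.11 ± 0.35, edgeR adjusted p = 0.85), a sign that turned without control replicate 2 or without caNIK replicate 1. Slfnl1, a gene with a Schlafen-like domain outside the cluster, had 9 counts in control replicate 2 and none in the other libraries.

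Of the 5 protein-coding neighbours on each side of the cluster, 8 were tested and 2 passed. Rffl, a ubiquitin ligase gene 5 genes before Slfn5, rose by 0.68 ± 0.18 on the log2 scale (edgeR adjusted p = 0.039). Rasl10b, a small GTPase gene 3 genes after Slfn14, had no count in control and 30 and 51 in caNIK, at least 29.3-fold higher against a floor of 3 counts over the control group (edgeR adjusted p = 0.0097). Unc45b, the gene next to Slfn5, had a log2 fold change of -2.09 ± 0.80 and did not pass (edgeR adjusted p = 0.11). Either direction passed in 22.0% of all genes tested.

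Interferon receptor and signalling genes, through which Schlafen genes are known to be induced, were listed for comparison. Of 20 tested, 13 were higher and 1 was lower, and the median log2 fold change was 1.0 (13.8% and 8.21% of all genes). Irf7, a transcription factor that amplifies type I interferon, and the kinase gene Jak2, both among the smallest p-values, rose by 2.82 ± 0.22 and 1.34 ± 0.15 on the log2 scale (edgeR adjusted p = 0.00048 and 0.0016). Irf7 lay at 21.0 and 15.9 CPM in control and 145 and 115 CPM in caNIK. The receptor chain gene Ifnar2 was the member that fell (-0.62 ± 0.16; edgeR adjusted p = 0.033), a call lost without control replicate 1, control replicate 2 or caNIK replicate 2. The comparison lists were chosen with earlier results of these data known. They were described by counts, and nothing particular to them was tested.

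Genes that cut RNA or control translation in antiviral defence, roles also known for Schlafen proteins, gave a similar count. Of 20 tested, 13 were higher and 1 was lower, beside 13.8% higher and 8.21% lower among all genes. The median log2 fold change was 1.51. The 3 higher members with the smallest p were Oasl2 (2.53 ± 0.18), the exonuclease gene Isg20 (2.53 ± 0.19) and Oas3 (2.09 ± 0.18), an antiviral synthetase gene (edgeR adjusted p = 0.00034, 0.00041 and 0.00069). The member that fell was Ang, which encodes angiogenin, the tRNA-cutting nuclease against which Slfn2 is known to shield tRNA. It had 37 counts over the control libraries and 1 over the caNIK libraries, 34.1-fold lower with a counting interval of 5.75-fold to 1382-fold (edgeR adjusted p = 0.035). That call was lost without control replicate 2 and without caNIK replicate 2.

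Regulators of T cell quiescence, a state that needs Slfn2, had 1 higher and 2 lower members of 11 tested, beside 13.8% higher and 8.21% lower among all genes. Of these, Btg2 rose (1.30 ± 0.29; edgeR adjusted p = 0.023), and Runx1 and Foxp1 fell (-0.80 ± 0.16 and -0.76 ± 0.17; edgeR adjusted p = 0.015 and 0.020). The median log2 fold change was 0.28. The count of higher members was 1 in edgeR and 5 in DESeq2. Btg2 lost its call without caNIK replicate 1, and 1 of the 2 lower calls was lost when control replicate 1 or control replicate 2 was left out.

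**Figure D4:**
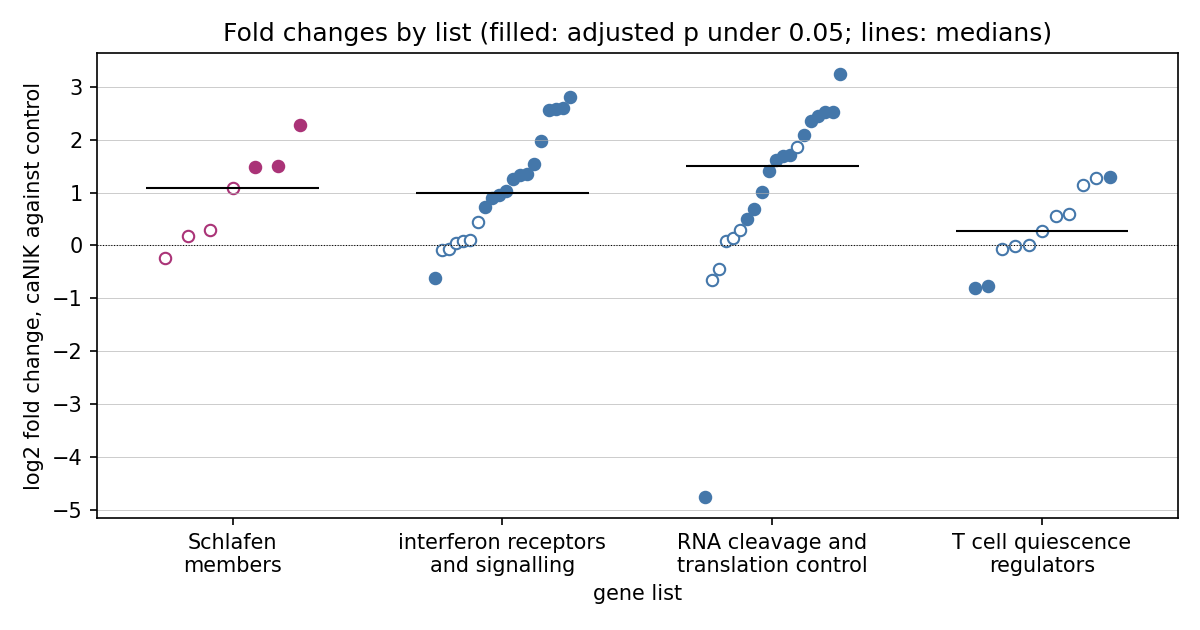
Log2 fold change, caNIK against control (vertical axis), of each tested gene of the Schlafen family and the 3 comparison lists, sorted within a list, filled where the adjusted p was under 0.05, with lines at the medians. The medians are 1.09, 1.0, 1.51 and 0.28 from left to right.

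For each member, the 2 genes with the most similar pattern were found by the Euclidean distance between log2 CPM values centred on each gene's mean over the 4 libraries, where 0 means the same pattern. Slfn2 was nearest to the chemokine receptor gene Ccr1 (distance 0.13) and to Rab6b (0.191). Slfn4 was nearest to Ifi47, an interferon-inducible GTPase gene (0.183), and Hdgfrp3 (0.193), and Slfn5 to the growth factor receptor gene Fgfr3 (0.0961) and Myo6 (0.112). Ccr1 lay at 1.87 and 1.11 CPM in control and 7.52 and 7.62 CPM in caNIK, and Ifi47 at 79.4 and 53.4 against 173 and 209 CPM. Both passed, as did the other 4 genes of these 3 pairs. The nearest genes of the members that did not pass were Herc4 and Myl12a for Slfn3, Crebrf and Rc3h2 for Slfn8, and Lhfpl2 and Zfp330 for Slfn9, at distances from 0.0107 to 0.0549. Slfn1 had no close partner, with Lgals3 at 0.924 and Spint1 at 1.01. With 4 libraries and many changed genes these distances describe the libraries and test nothing.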

How the data were processed

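The deposited tables, 1 for each of the 4 libraries, list whole-number read counts by gene symbol and are not normalized, as their headers and values show. Tools named without roles in the submitters' processing notes are TopHat2 2.1.0, featureCounts 1.5.0, DESeq2 1.10.1 and FastQC, with mm9 as the build. Annotation release, strandedness and the handling of reads with several matches are not given there. Groups and replicate numbers came from the sample titles.

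Counts were fitted in R 4.3.3 with edgeR 4.0.16: filterByExpr kept 14191 genes, scaling was by TMM, and a quasi-likelihood fit of group alone was followed by the two-sided F test. Standard errors come from the F statistic, and 95% intervals from the t distribution with the test's degrees of freedom. SD values are over n = 2 libraries. Alternatives were DESeq2 1.42.0, limma-voom (limma 3.58.1), 3 other scalings, 2 other filters, the replicate number as a block, and each library left out. Lists were described by counts and medians.

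Named were the 7 members, Map3k14, the other Schlafen symbols, up to 3 genes per direction and list with the smallest p, 5 neighbours on each side, and 2 genes of similar pattern per member (at least 5 CPM in the higher group, prior count 2, no predicted genes or clones); some of these are not reported here. Other genes named (Ccr1 and Ifi47 by level, Kit, Cd3e, Cd8a, Cx3cr1) were chosen after their values were seen. Members and lists were chosen with earlier results of these data known. Exon lengths and shared 50-base and 100-base words come from GENCODE M21 (GRCm38), promoter sequences from RefSeq.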

Additional observations from a re-analysis of the deposited data

How the results depend on the processing

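Across the 12 other settings listed in the methods, 3 Schlafen members were higher in each setting that used all libraries. With 1 library left out the count was 2 to 4 (3 without caNIK replicate 1), and 0 were lower throughout. Slfn2 and Slfn5 kept direction and call in each (log2 fold changes 1.89 to 2.77 and 1.11 to 1.79), Slfn3 and Slfn9 never passed, and Slfn8 lay between -0.043 and 0.54 with 1 library left out, the lowest being that without caNIK replicate 1. Slfn10-ps lay between -0.37 and 0.46 with 1 library left out. Summed with Slfn8 and Slfn10-ps, the value for Slfn9 turned to 0.054, since the sum holds other genes. The median over the members ranged from 0.29 (control replicate 2 omitted) to 1.56 (control replicate 1 omitted). With 1 library left out, the lone library of its group is assumed to vary like the other group.

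With 1 library left out, interferon signalling genes had 11 to 13 higher and 0 to 1 lower members, RNA cleavage and translation genes 10 to 12 higher and 0 to 2 lower, and T cell quiescence regulators 0 to 3 higher and 1 to 2 lower. In the RNA cleavage and translation list 2 members were lower under limma-voom, upper-quartile factors, library totals, the filter of at least 1 read in any library, and the replicate block. Among T cell quiescence regulators 5 were higher under DESeq2, under the filter of at least 1 read and under the replicate block, and 2 under limma-voom. The cause was not tested. The replicate block changed no member's call. Over all genes tested it gave 2494 higher and 1766 lower, beside 1964 and 1165 without the block. Deviations of the replicate 1 libraries from their group means correlated at 0.21 across genes. The labels do not say whether libraries of the same number belong together, and with 2 per group this was not tested. Shares of counts do not depend on the scaling. Slfn1, with 18 counts in control replicate 2, is the member most limited by depth.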
